A study of Mus musculus with 12 samples.

Results

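Cytokines and colony-stimulating factors are secreted or membrane-bound proteins with which endothelial cells instruct blood cells and their progenitors. The 10 genes described here are Csf1, Csf2, Csf3, Kitl, Il6, Lif, Il7, Il15, Tslp and Il33, chosen by name as cytokine genes that endothelium can make, out of 18193 genes with a probe set of a single symbol on the array. Where a gene had several probe sets, the one whose log2(signal + 16) averaged highest over all 12 arrays stands for it. Of the 10 genes, 7 had a signal of 100 or more on at least 4 arrays and entered the test, and Csf2, Csf3 and Lif did not. The members' 18 probe sets are all accounted for here, and 13 of them passed that filter.

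The cells were cultured endothelial cells of newborn wild-type mice, grown in DMEM with FCS, glutamine and antibiotics, with 4 arrays per group. The tmTNF group carried, by stable transfection, a transmembrane form of murine tumour necrosis factor (TNF) that cannot be cleaved. The soluble TNF group received TNF at 20 ng/ml for 4 h, and the control group was mock-transfected. The labels name neither the construct's promoter, nor the number of clones or animals, nor whether the soluble TNF cells carried the mock transfection. The p-values therefore reflect how these samples scatter, which may differ from the scatter between independent animals. Cell type markers also differed widely between arrays of a group, as given below.

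TNF binds Tnfrsf1a and Tnfrsf1b and activates NF-kB, and endothelium is a known source of colony-stimulating factors and interleukin 6 in inflamed tissue. Csf1, Csf2 and Csf3 drive the growth of macrophages, granulocyte-macrophage precursors and neutrophils, and Kitl (stem cell factor) holds blood stem cells and mast cells in their niche. Il6 and Lif signal through the shared receptor chain Il6st, Il7 and Il15 support lymphocytes, Tslp acts on dendritic cells through Crlf2 and Il7r, and Il33 is a nuclear alarmin read by Il1rl1.

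All 18 endothelial markers (Pecam1, Cdh5 and others) reached a signal of 100 on at least 1 array of every group. The cell type on the label was thus borne out in each group as a whole, but not evenly on each array. Vwf reached 100 on 1 tmTNF, 1 soluble TNF and 2 control arrays only, and on control replicate 3 Cldn5, Tek, Flt1, Vwf and Robo4 were under 100. Their summed signal ran from 35850 to 181500 on tmTNF arrays, from 55570 to 109500 on soluble TNF arrays and from 17360 to 171900 on control arrays, with control replicate 3 lowest and tmTNF replicates 2 and 4 next. Krt19, a keratin of epithelia and mesothelium, exceeded 2000 on these 3 arrays and on soluble TNF replicates 1 and 4, where it was 2801 to 11494.3, against 65.4 to 396.7 on the other 7. The 5 arrays with high Krt19 were also the 5 with the lowest summed endothelial markers. Summed fibroblast markers ran from 362.2 to 8497 with tmTNF, from 237.9 to 8192 with soluble TNF and from 355.1 to 10090 in controls, with Lum, Thy1, Postn, Dpt and Fbln1 under 100 throughout. Smooth muscle and pericyte markers summed to 293.2 to 1822 with tmTNF, 920.7 to 1839 with soluble TNF and 214.5 to 1297 in controls, with Myh11, Cnn1, Rgs5 and Des under 100 throughout. Epithelial markers summed to 275 to 11790, 532.1 to 3418 and 486.6 to 7368 in the same order, and mesothelial markers to 97.74 to 2599, 98.51 to 1626 and 120.8 to 3476. Of these, Cdh1, Krt18, Krt5 and Krt14 and the mesothelial Upk3b, Wt1, Lrrn4 and Krt7 stayed under 100 throughout. The Y-linked genes Eif2s3y, Kdm5d and Uty gave at least 218.8 on every tmTNF array and at most 39.5 on the other 8, so the sex of the cells and the tmTNF group cannot be told apart.

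Promoter sequence was at hand from RefSeq (build GRCm38.p6) for 6 of the 10 genes, Csf1, Csf2, Il6, Lif, Kitl and Il33, and not for Csf3, Il7, Il15 or Tslp. The 250 bases before the annotated start are shown for the myeloid factors Csf1 and Csf2 and for Il6, 5′ to 3′ on the gene's strand, because NF-kB is the pathway TNF activates and these genes are followed array by array in the text. Capitals mark matches to the NF-kB consensus or to the AP-1 motif TGANTCA on either strand.
Csf1, chr3:107760470-107760719, minus strand: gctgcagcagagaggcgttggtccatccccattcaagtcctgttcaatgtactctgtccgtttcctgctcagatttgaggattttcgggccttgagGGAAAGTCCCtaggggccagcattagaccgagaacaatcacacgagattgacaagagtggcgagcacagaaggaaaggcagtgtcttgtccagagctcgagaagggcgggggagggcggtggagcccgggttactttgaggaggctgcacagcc
Csf2, chr11:54249900-54250149, minus strand: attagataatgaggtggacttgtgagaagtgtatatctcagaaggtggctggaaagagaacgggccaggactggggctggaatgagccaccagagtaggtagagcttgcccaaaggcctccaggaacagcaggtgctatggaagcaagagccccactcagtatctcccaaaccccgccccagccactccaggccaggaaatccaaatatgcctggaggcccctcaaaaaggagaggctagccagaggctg
Il6, chr5:30012864-30013113, plus strand: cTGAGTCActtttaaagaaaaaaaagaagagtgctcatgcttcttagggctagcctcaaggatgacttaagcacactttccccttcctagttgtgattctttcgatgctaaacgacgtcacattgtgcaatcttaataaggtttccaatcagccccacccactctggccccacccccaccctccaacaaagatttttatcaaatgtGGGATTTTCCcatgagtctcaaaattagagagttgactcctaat
The NF-kB match of Csf1 lies 154 to 145 bases before the start, on the opposite strand, and that of Il6 lies 44 to 35 bases before the start, with an AP-1 match 249 to 243 bases before it. None of the matches overlap one another. The Csf2 stretch holds none of the 4 motifs searched, which says only that these letters are not in this window.

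Of the 7 member promoter stretches (Il33 has 2 starts), 4 held the NF-kB consensus, those of Csf1, Il6, Kitl and Lif, and 7.25% of all 32851 stretches of the same length did. The AP-1 motif was found in those of Il6 and Lif and in 6.75% of all stretches. The interferon response element (2.98% of all stretches) and the motif TTCNNNGAA, a binding sequence of STAT proteins (7.02%), were found in none of the 7. A match is a description of the letters and not evidence of a site in use.

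Across the 3 comparisons, 1 of 7 tested genes passed once. Tslp was lower with tmTNF than with soluble TNF. The test was limma's moderated test on log2(signal + 16), fitted to all 10269 genes that passed the filter, two-sided, with Benjamini-Hochberg adjustment and a threshold of 0.05. All adjusted p-values below come from this fit unless another is named. Between tmTNF and control, 0 of the 7 passed (0.195% of all genes did) and 1 of 7, Il7, had an unadjusted p under 0.05 (7.56% of all genes). Between soluble TNF and control, 0 of the 7 passed (0.039% of all genes), and Csf1, Il7 and Tslp had an unadjusted p under 0.05, all higher with soluble TNF (12.7% of all genes). Il7 passed the filter through the TNF arrays alone, so its p-values against control support no call. Between tmTNF and soluble TNF, 1 of 7 passed (1.22% of all genes), and Il6, Il7 and Tslp had an unadjusted p under 0.05 (19.9% of all genes).

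The median log2 fold change of the 7 was 0.97 for tmTNF minus control, against 0.03 over all genes. For soluble TNF minus control it was 0.65, against -0.04, and for tmTNF minus soluble TNF 0.28, against 0.08. Groups did not overlap for 1 of 7 genes between tmTNF and control (Il7, 3.17% of all genes) and for 1 of 7 between soluble TNF and control (Il7, 8.11%). They did not overlap for 3 of 7 between tmTNF and soluble TNF (Il6, Csf1 and Tslp, 16.1%). Because Il7 was let in by the TNF arrays alone, its separation from control is a description only. The comparisons share arrays, so their values are set side by side and not counted as separate evidence. In these bulk cultures, fewer cells of a type and less RNA per cell cannot be told apart.

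**Figure D1:**
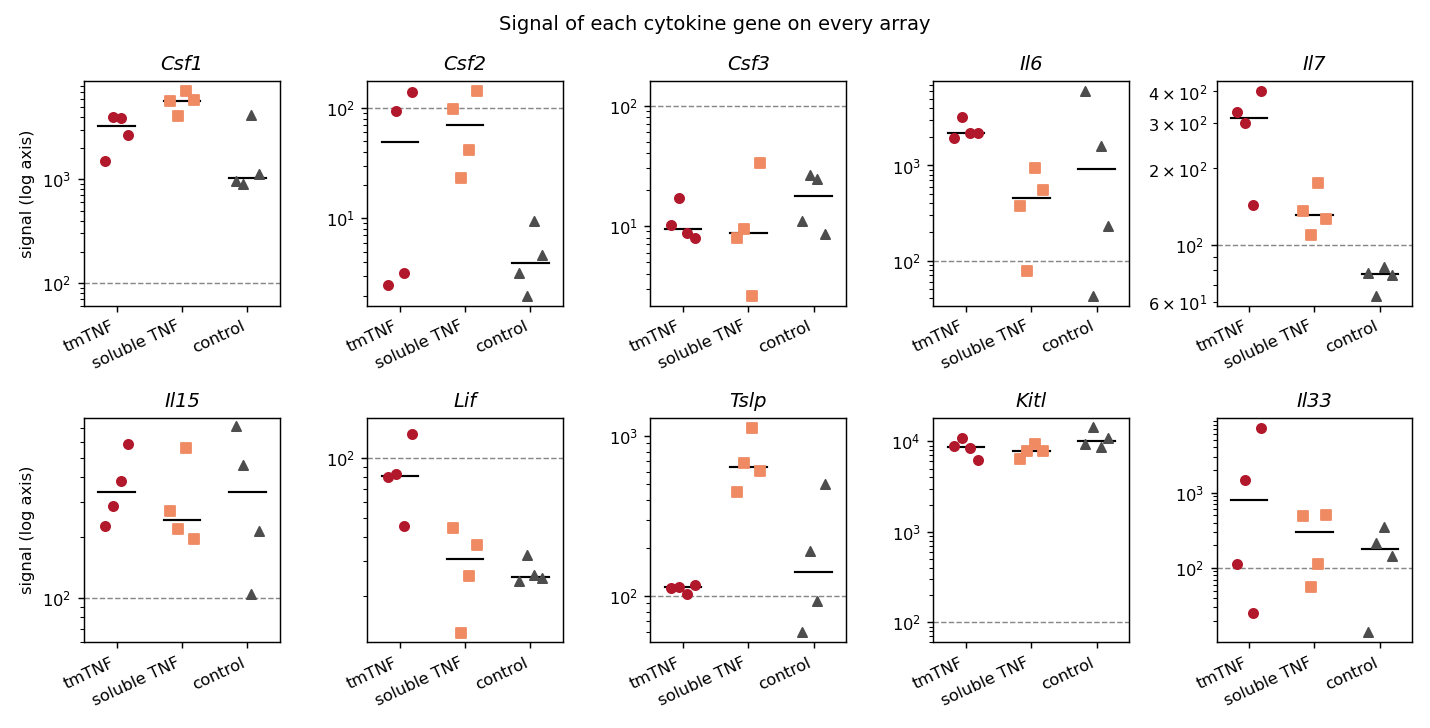
Signal (log axis) of the 10 genes on every array, with points for the 4 arrays of tmTNF, soluble TNF and control, black bars for group medians and a dashed line at the signal of 100. Tslp is even at 102.7 to 116.9 with tmTNF and lies at 447.7 or more with soluble TNF, while Il6 in controls runs from 42.9 to 6033.4.

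**Figure D2:**
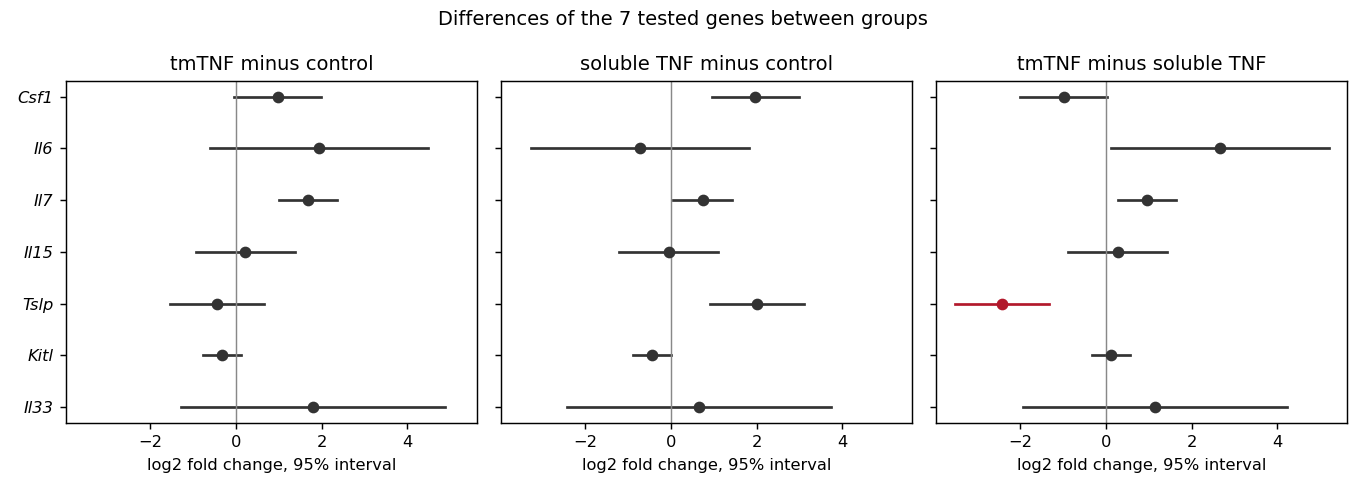
Log2 fold changes of the 7 tested genes with their 95% intervals in the 3 comparisons, with the gene that passed the threshold in red. The intervals of Il6 and Il33 are several times wider than that of Kitl, and only Tslp between tmTNF and soluble TNF passed.

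Csf1, the growth factor of macrophages, had a signal of 1494.3, 4003.7, 3924.2 and 2656.2 in tmTNF replicates 1 to 4. In soluble TNF replicates 1 to 4 it was 5740.4, 4127.5, 7205.8 and 5826.7, and in control replicates 1 to 4 it was 963.4, 901.6, 4222.2 and 1117.7. All 4 soluble TNF arrays lay above all 4 tmTNF arrays and above control replicates 1, 2 and 4, while control replicate 3 lay just above soluble TNF replicate 2. The log2 fold change was 1.97 ± 0.47 (SE, n = 4 per group, adjusted p = 0.209) for soluble TNF minus control. For tmTNF minus control it was 0.97 ± 0.47 (adjusted p = 0.688), and for tmTNF minus soluble TNF -0.99 ± 0.47 (adjusted p = 0.261). Csf1 therefore did not pass in any comparison with all 12 arrays.

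The result for Csf1 rested on control replicate 3, the array with the lowest summed endothelial markers and a Krt19 signal of 7119.8. Without that array the highest control signal was 1117.7, and the value for soluble TNF minus control was 2.485, which passed (adjusted p = 0.0213). It passed likewise without that array and tmTNF replicates 2 and 4 (2.485, adjusted p = 0.0253). It did not pass without the 5 arrays with a Krt19 signal over 2000 (2.443, adjusted p = 0.217). That omission was chosen after seeing the data and takes arrays from every group. The part of the other cells in the Csf1 signal was not tested.

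The other 3 Csf1 probe sets gave the same order of groups. With soluble TNF, 1448914_a_at ran from 2314.6 to 4319.6, 1425154_a_at from 1125.3 to 1985.7 and 1425155_x_at from 790.6 to 914.5. Their control signals were 450.9 to 2080.1, 131.7 to 626.2 and 71.3 to 408.3, so soluble TNF arrays lay wholly above controls on each of these 3. Fitted among 18022 probe sets, the 4 values for soluble TNF minus control were 1.97 to 2.27, with adjusted p of 0.148 to 0.194. For tmTNF minus control they were 0.86 to 1.49, with adjusted p of 0.383 to 0.762. The x in the name of 1425155_x_at marks probes that can bind other transcripts, so its level is uncertain.

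**Figure D3:**
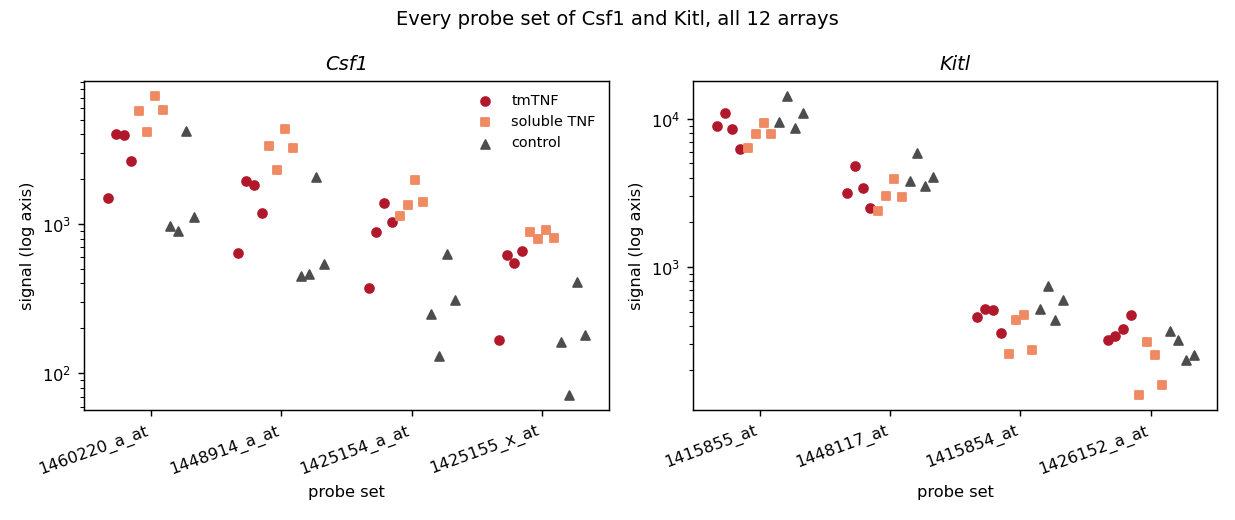
Signal (log axis) of the 4 probe sets of Csf1 and the 4 of Kitl on every array, with points for tmTNF, soluble TNF and control arrays. On all 4 Csf1 probe sets, control replicate 3 is the highest control, while on 3 of the 4 Kitl probe sets the highest single array is a control and on 1426152_a_at it is a tmTNF array.

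Csf2, which encodes the granulocyte-macrophage factor, stayed near or under the signal of 100. It read 2.5, 94.2, 3.2 and 138.5 in tmTNF replicates 1 to 4, then 97.9, 23.4, 41.4 and 141.5 in soluble TNF replicates 1 to 4, and 3.2, 2.0, 9.4 and 4.7 in control replicates 1 to 4. All 4 soluble TNF arrays lay above all 4 controls, while tmTNF split into 2 arrays at the control level and 2 above it. The 4 highest signals of Csf2 stood on tmTNF replicates 2 and 4 and soluble TNF replicates 1 and 4, all of them arrays with high Krt19, while the control array with high Krt19 had 9.4. No fold is given, because control signals and most TNF signals were under 100.

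Csf3, the neutrophil growth factor, was under 100 on all 12 arrays, at 8.0 to 17.2 with tmTNF, 2.6 to 33.1 with soluble TNF and 8.6 to 26.7 in controls. The signals therefore carry no order between the groups. With no filter, among 18193 genes, limma passed none of Csf2, Csf3 and Lif in any comparison (adjusted p from 0.16 to 0.977). Unadjusted p under 0.05 was found for Csf2 between soluble TNF and control (0.0127), and for Lif with tmTNF against control (0.0038) and against soluble TNF (0.00526). The share of all genes with such a p was not computed for that fit. Most signals of Csf2 and Lif were under 100, so these p-values support no call.

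Kitl, the ligand of Kit, was read at a high and even level. Its signals were 8923.9, 10872.6, 8485.9 and 6224.5 with tmTNF, 6313.3, 7884.1, 9409.9 and 7905.7 with soluble TNF, and 9462.1, 14259.5, 8659.1 and 10967.6 in controls. The groups overlapped in every comparison, and the highest signal within a group was 1.75, 1.49 and 1.65 times the lowest for tmTNF, soluble TNF and control. The log2 fold change was -0.33 ± 0.205 (SE, n = 4 per group, adjusted p = 0.803) for tmTNF minus control, with a 95% interval of -0.78 to 0.12. For soluble TNF minus control it was -0.45 ± 0.205 (adjusted p = 0.394, interval -0.89 to 0). For tmTNF minus soluble TNF it was 0.12 ± 0.205 (adjusted p = 0.786, interval -0.33 to 0.56).

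On the Kitl probe set 1426152_a_at the tmTNF value had the opposite sign, 0.35 ± 0.28 against control, while 1415855_at, 1448117_at and 1415854_at gave -0.33, -0.33 and -0.29. For soluble TNF minus control the 4 probe sets had the same sign. In that comparison 1415855_at, 1448117_at, 1415854_at and 1426152_a_at gave -0.45, -0.49, -0.67 and -0.47 (adjusted p of 0.324 to 0.497 among 18022 probe sets). Between tmTNF and soluble TNF, 1426152_a_at gave 0.82 ± 0.28 (adjusted p = 0.15 among 18022 probe sets), with all 4 tmTNF arrays (319.4 to 474.8) above all 4 soluble TNF arrays (135.9 to 313.7). Kitl is known to be spliced into soluble and membrane-bound forms, and which form each probe set reads is not given in the sources used here.

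Il6, the acute phase inducer, had an even signal with tmTNF and a scattered one elsewhere. The signals were 1932.6, 3251.4, 2200.0 and 2192.1 in tmTNF replicates 1 to 4. They were 373.6, 77.8, 948.9 and 546.1 in soluble TNF replicates 1 to 4, and 6033.4, 42.9, 1619.5 and 231.0 in control replicates 1 to 4. All 4 tmTNF arrays lay above all 4 soluble TNF arrays, and the control arrays spanned both groups. The highest Il6 signal was 1.68 times the lowest with tmTNF, 12.2 times with soluble TNF and 141 times in controls.

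With that spread, the log2 fold change of Il6 was 1.94 ± 1.17 (SE, n = 4 per group, adjusted p = 0.795) for tmTNF minus control and -0.715 ± 1.17 (adjusted p = 0.837) for soluble TNF minus control. For tmTNF minus soluble TNF it was 2.655 ± 1.17 (adjusted p = 0.235, interval 0.11 to 5.20). With only those 2 groups in the model it passed (adjusted p = 0.0495), but the share of all genes that passed in that fit was not computed. Leaving out 1 array moved the value for tmTNF minus control to between 0.811, without control replicate 2, and 3.038, without control replicate 1, and it did not pass in any of these fits. The sign for soluble TNF minus control turned without control replicate 1, to 0.384.

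Leukocyte markers are given beside Il6 because their sums also differed between arrays. The summed signal of 8 leukocyte markers was 5206 to 7680 with tmTNF, 615.3 to 1109 with soluble TNF and 808.2 to 18870 in controls, and the control array with the highest sum, replicate 1, also had the highest Il6. Within soluble TNF the order differed, since replicate 3 had the highest Il6 and the lowest sum. Cd68, a lysosomal protein abundant in macrophages, gave 6727.6, 722.9, 4295.2 and 63.3 in tmTNF replicates 1 to 4, 149.7 to 232.3 with soluble TNF, and 18210.0, 520.1, 2284.9 and 255.2 in control replicates 1 to 4. Cd14 made up most of the sum on tmTNF replicates 2 and 4 (5128.6 and 4762.5). Ptprc, Itgam, Adgre1 and Cd3e, which define leukocytes, macrophages and T cells, stayed under 100 on all 12 arrays. None of the 4 tested leukocyte markers passed in any comparison, and the part of such cells in the Il6 signal was not tested.

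**Figure D4:**
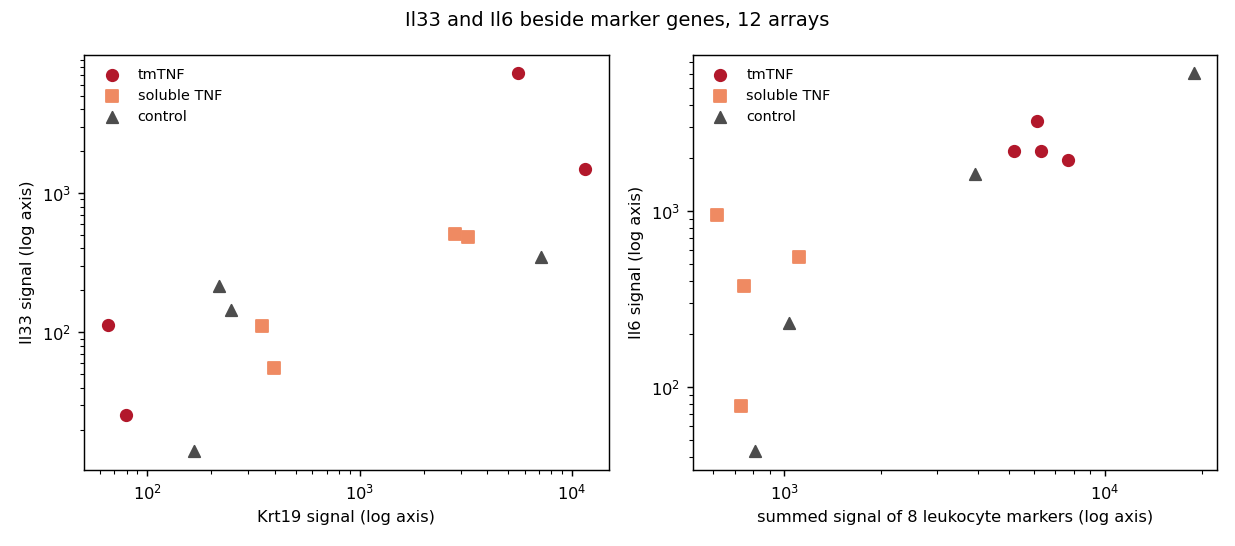
Left, Il33 signal against Krt19 signal, and right, Il6 signal against the summed signal of 8 leukocyte markers, for the 12 arrays on log axes, with points for tmTNF, soluble TNF and control arrays. The 5 arrays with Krt19 above 2000 have Il33 signals of 347.1 to 7218.4, and control replicate 1 is highest on both axes of the right panel.

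Lif, which keeps stem cells undifferentiated and shares Il6st with Il6, was read at 80.1, 82.6, 45.2 and 131.7 with tmTNF. It was 44.5, 13.1, 25.4 and 36.3 with soluble TNF, and 23.8, 32.4, 25.5 and 24.7 in controls. Every tmTNF array thus lay above the 8 other arrays, but 11 of the 12 signals were under 100, so no fold is given. A further Lif probe set, 1450160_at, was at 15.7 or less on all 12 arrays.

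Il7, which keeps lymphocytes alive and is made mainly by stromal cells, had a signal of 332.2, 300.6, 144.2 and 400.8 in tmTNF replicates 1 to 4. In soluble TNF replicates 1 to 4 it was 136.6, 110.0, 175.2 and 126.4, and in control replicates 1 to 4 it was 77.7, 63.7, 82.5 and 76.5. All control arrays were under 100, both TNF groups lay wholly above them, and Il7 entered the test through the TNF arrays alone. Soluble TNF and tmTNF overlapped only through tmTNF replicate 3.

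Against a signal of 100, Il7 was at least 2.525-fold higher with tmTNF than in control cells (adjusted p = 0.0614) and at least 1.3-fold higher with soluble TNF (adjusted p = 0.372). The fitted log2 values were 1.69 ± 0.32 and 0.74 ± 0.32 (SE, n = 4 per group), and neither passed. The value for tmTNF minus soluble TNF was 0.95 ± 0.32 (adjusted p = 0.138). Because the filter let Il7 in through the arrays where it is high, its p-values against control support no call, and with no filter the adjusted p for tmTNF minus control was 0.0847. Over 25 alternatives that p ran from 0.024, without tmTNF replicate 3 (log2 1.979), to 0.993, without the 5 arrays with high Krt19 (log2 1.418), and 2 of the 25 lay under the threshold. Leaving out those 5 takes arrays from every group. The dimmer Il7 probe set, 1422080_at, gave 60.8 to 129.1 with tmTNF, 8.6 to 47.6 with soluble TNF and 12.4 to 28.4 in controls, so its tmTNF arrays also lay above the other 8.

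Il15, which supports natural killer and memory T cells, showed no separation of groups. Its signals were 227.8, 288.0, 381.9 and 584.4 with tmTNF, 269.8, 219.3, 560.9 and 196.6 with soluble TNF, and 716.7, 461.3, 104.4 and 214.2 in controls. The control arrays held both the highest and the lowest signal. The log2 fold change was 0.22 ± 0.53 (SE, n = 4 per group, adjusted p = 0.961) for tmTNF minus control, with a 95% interval of -0.94 to 1.37. It was -0.06 ± 0.53 (adjusted p = 0.977, interval -1.22 to 1.10) between soluble TNF and control, and 0.28 ± 0.53 (adjusted p = 0.809) for tmTNF minus soluble TNF.

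Tslp, an alarmin of barrier tissues that conditions dendritic cells, was the gene that passed. Its signals were 113.0, 114.8, 102.7 and 116.9 in tmTNF replicates 1 to 4 and 447.7, 675.4, 1124.4 and 602.0 in soluble TNF replicates 1 to 4. In control replicates 1 to 4 they were 59.5, 191.1, 92.9 and 504.5. The tmTNF arrays were close to one another and just above 100, all soluble TNF arrays lay above them, and the controls ran from below the tmTNF group into the soluble TNF range.

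Tslp was 5.4-fold lower with tmTNF than with soluble TNF (log2 -2.43 ± 0.50, SE, n = 4 per group, adjusted p = 0.0401), and it was lower on 4 of 4 tmTNF arrays. The log2 fold change was 2.00 ± 0.50 (adjusted p = 0.219) for soluble TNF minus control and -0.43 ± 0.50 (adjusted p = 0.92) for tmTNF minus control, and neither passed. Without control replicate 4 the value for soluble TNF minus control was 2.53 and passed (adjusted p = 0.0312), and that for tmTNF minus control turned sign, to 0.097. The call between tmTNF and soluble TNF was lost in 9 of the 12 fits that left out 1 array (adjusted p from 0.0111 to 0.125), those without control replicate 2 or without any one of the 8 TNF arrays, while its log2 value stayed between -2.623 and -2.191. The call was also lost without the 5 arrays with high Krt19 (adjusted p = 0.248). In that fit every group had fewer arrays, and the log2 value was larger in size, at -2.843.

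Acta2, a smooth muscle and pericyte actin and the 1 tested gene of that marker list, had its group means in the same order as Tslp. Its signals were 117.3, 101.2, 238.3 and 219.4 in tmTNF replicates 1 to 4, 1524.1, 1150.8, 1668.5 and 736.2 in soluble TNF replicates 1 to 4, and 506.3, 98.3, 121.2 and 1042.6 in control replicates 1 to 4. All tmTNF arrays lay below all soluble TNF arrays, and control replicate 4 was the highest control for both Acta2 and Tslp. Soluble TNF replicate 3 was likewise the highest of its group for both genes, while the lowest was replicate 1 for Tslp and replicate 4 for Acta2. Within groups the order otherwise differed. Control replicate 1 was the lowest control for Tslp and control replicate 2 for Acta2, and tmTNF replicate 3 was lowest of its group for Tslp but highest for Acta2. The Acta2 value for tmTNF minus soluble TNF was -2.81 ± 0.63 (adjusted p = 0.0543), while Myh11, Cnn1, Rgs5 and Des were under 100 on all 12 arrays. Others of the list differed in direction. Pdgfrb reached 1336.8 on tmTNF replicate 3 and at most 29.2 with soluble TNF. Cspg4 was 42.8 to 116.2 with tmTNF and 25.3 to 45.3 with soluble TNF, while Tagln reached at most 41.8 with tmTNF and 100.3 with soluble TNF. The part of such cells in the Tslp signal was not tested.

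Il33, the nuclear alarmin of endothelium and other barrier cells, differed far more within groups than between them. It read 113.3, 1486.8, 25.4 and 7218.4 in tmTNF replicates 1 to 4. In soluble TNF replicates 1 to 4 it read 486.5, 55.4, 111.6 and 512.0, and in control replicates 1 to 4 it read 14.0, 214.2, 347.1 and 144.7. The highest signal was 284 times the lowest with tmTNF, 9.24 times with soluble TNF and 24.8 times in controls. The log2 fold changes were 1.79 ± 1.42 (SE, n = 4 per group, adjusted p = 0.881) for tmTNF minus control, 0.65 ± 1.42 (adjusted p = 0.879) between soluble TNF and control, and 1.15 ± 1.42 (adjusted p = 0.686) for tmTNF minus soluble TNF.

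In each of the 3 groups, the arrays with the highest Il33 were those with high Krt19. On those 5 arrays Il33 was 347.1 to 7218.4, and on the other 7 it was 14.0 to 214.2. The 2 highest, tmTNF replicates 2 and 4, were also the arrays with the highest Dcn, a fibroblast proteoglycan. It was 3276.5 and 7270.8 there, against 185.5 or less on the other 10. Pdgfra was also highest on these 2 arrays, at 699 and 943.7, but the collagens of the fibroblast list were not. Col1a1, Col1a2 and Col3a1 were at 88.2 or less on both, against 429, 3248.2 and 4119.1 on soluble TNF replicate 1. Without the 5 arrays the Il33 values turned sign in all 3 comparisons, to -0.501 for tmTNF minus control, -0.117 for soluble TNF minus control, then -0.384 for tmTNF minus soluble TNF. This omission was chosen after seeing the data. It removes the arrays with the highest Il33 of each group, so lower group means were fixed in advance and the turn is a description only. The part of non-endothelial cells in the Il33 signal was not tested.

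Genes of the receptors for these cytokines showed no difference that passed. Of 16 receptor genes, 14 were on the array with a single symbol and 8 entered the test. Between tmTNF and control, soluble TNF and control, and tmTNF and soluble TNF, 0 of the 8 passed (unadjusted p under 0.05 for 2, 0 and 1 of them, and for 7.56%, 12.7% and 19.9% of all genes). Their median log2 fold changes were 0.38, 0.03 and 0.63, where those of all genes were 0.03, -0.04 and 0.08. Il6st, the shared chain for Il6 and Lif, had mean signals of 3372 ± 1167, 2243 ± 557 and 2820 ± 1679 in tmTNF, soluble TNF and control cells, and Crlf2, the Tslp receptor chain, had 3564 ± 1370, 2192 ± 436.7 and 2622 ± 770.9 (signal, SD, n = 4 each). The partners that bind ligand with them, Il6ra and Il7r, reached 158.5 and 104.3 at most, and Csf3r and Il2rb stayed under 100 on all 12 arrays.

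Csf2ra, the chain that binds the granulocyte-macrophage factor, was 294.4, 119.6, 263.6 and 78.6 with tmTNF, against at most 58.1 with soluble TNF and 113.8 in controls. Csf2ra was at least 1.575-fold higher with tmTNF than with soluble TNF (adjusted p = 0.15), which did not pass, and tmTNF replicate 4 was itself under 100. It reached 100 on 3 tmTNF arrays and 1 control array only. The filter thus let it in mainly through the group where it is high, so its p-values support no call. Csf2ra is among the receptors counted above with an unadjusted p under 0.05, for tmTNF against control and against soluble TNF. Il15ra, which presents Il15 to neighbouring cells, averaged 504.1 ± 230.8 with tmTNF, 295.6 ± 47.49 with soluble TNF and 265.8 ± 210.9 in controls (signal, SD, n = 4 each), and its value for tmTNF minus control was 1.05 ± 0.48 (adjusted p = 0.656). Csf1r, the macrophage receptor for Csf1, was 69.4 to 183.5 over all 12 arrays with no separation of groups.

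**Figure D5:**
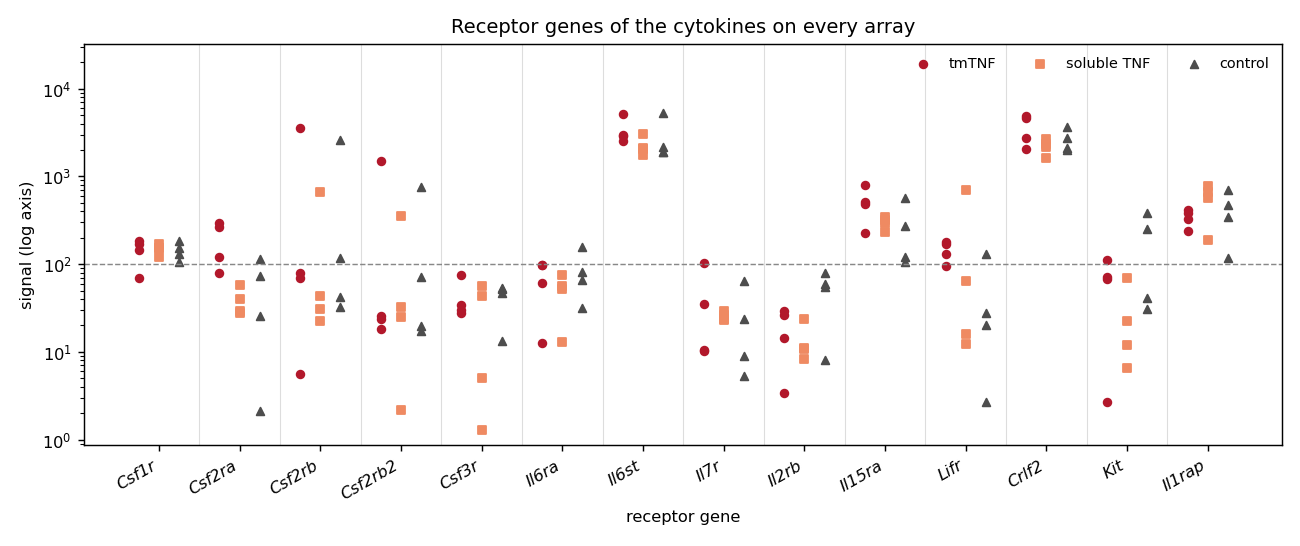
Signal (log axis) of 14 receptor genes on every array, with points for tmTNF, soluble TNF and control arrays and a dashed line at the signal of 100. Il6st and Crlf2 lie at 1600.6 or more on all 12 arrays, while Csf3r and Il2rb lie under 100 on all 12.

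Among 30 other interleukins and blood-forming cytokines, 23 were on the array and 18 of these stayed under 100 on all 12 arrays. Only Il24 and Clcf1 entered the test, and 0 of the 2 passed in any comparison. Il24 had an unadjusted p under 0.05 in tmTNF minus control (7.56% of all genes) and in tmTNF minus soluble TNF (19.9%), and Clcf1 in none. Il24 read 400.3, 3.3, 55.0 and 5.8 with tmTNF, 106.5 to 1013.9 with soluble TNF and 93.9 to 1443.3 in controls, and its value for tmTNF minus soluble TNF was -2.78 ± 1.03 (adjusted p = 0.174). Clcf1, another Il6 family ligand, averaged 411.7 ± 190.1, 406.3 ± 96.8 and 268.9 ± 100.1 in the 3 groups (signal, SD, n = 4 each).

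Genes for proteins that set the stability of cytokine mRNA were all measured as transcripts, and 0 of 14 passed in any comparison (unadjusted p under 0.05 for 0, 2 and 3 of them in the same order, where 7.56%, 12.7% and 19.9% of all genes had one, so these counts are near the background). Zfp36l2, a destabiliser, ran from 3162.7 to 8189.9 with tmTNF, 2377.0 to 5852.9 with soluble TNF and 2924.8 to 6979.3 in controls. Hnrnpd, which binds AU-rich elements, had all 4 soluble TNF arrays above all controls, with 0.90 ± 0.24 (adjusted p = 0.241). Elavl1, a stabiliser of such mRNAs, had all tmTNF arrays below all soluble TNF arrays, with -0.60 ± 0.20 (adjusted p = 0.143). Arid5a, which stabilises Il6 mRNA, had the opposite sign in that comparison, with 0.99 ± 0.345 (adjusted p = 0.153) and overlapping groups, and Hnrnpd had -0.64 ± 0.24 (adjusted p = 0.174). Zfp36, of the same family as Zfp36l2, and Zc3h12a, which degrades Il6 mRNA, had no unadjusted p under 0.05. Of 9 genes for proteases that release cell-bound cytokines and their regulators, 7 were tested and 0 passed (unadjusted p under 0.05 for 0, 0 and 1, against the same 7.56%, 12.7% and 19.9% of all genes). Adam10, a protease that cuts many surface proteins, lay between 5388.7 and 10112.2 on all 12 arrays.

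Some genes followed the leading cytokines across the 12 arrays. Pearson's r on log2 values was 0.951 between Tslp and Arsj, 0.915 with Jpt2 and 0.912 with Anp32e, with Spearman's rho of 0.818, 0.937 and 0.846. Il7 was most like Ifit1bl1 (r = 0.908, rho = 0.923), Uggt1 (0.901, 0.895) and Ccl5 (0.898, 0.888). Csf1 was most like Noct (0.921, 0.923), Foxp4 (0.914, 0.853) and Vcam1 (0.901, 0.720). These are the highest of 10268 coefficients each, over arrays that share their groups and cultures, and are a description only.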

How the data were processed

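The study used 12 Affymetrix mouse arrays, with 4 in each group. The deposited values are linear signal intensities for which the submitters' processing notes name MAS5, with no version or setting given in the sources used here. Deposited values ran from 0.1 to 95672 with a 2% trimmed mean of 1000 on every array. The number of arrays limits the precision, and no detection calls were used, so a signal of 100 stands in for the background limit.

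After removal of the 64 control probe sets, arrays were brought to a common 2% trimmed mean of 500 and transformed to log2(signal + 16), a scale that understates changes of dim genes. Of the other probe sets, 34945 had 1 gene symbol in the platform annotation, 932 several and 9160 none, and 34754 identifiers were found in RefSeq's gene table (0 symbols changed). Probe sets with at least 4 arrays at 100 or more were kept, 1 per gene. Between 17652 and 19174 probe sets per array reached 100. The 3 groups were fitted together with limma 3.58.1 in R 4.3.3 (lmFit, eBayes with an intensity trend), and the fit was tested on simulated data. "At least" folds compare the brighter group's mean on the log2 scale with the limit of 100 where the dimmer group stayed under that limit on each of its 4 arrays. Members, lists and alternatives were chosen with earlier results of these data known. Named genes are all members, list genes that passed (otherwise the brightest) and the 3 genes most like each of 3 members. Other list genes with an unadjusted p under 0.05 or a role beside a member were added after values were seen. Replicate numbers follow accession order and pair no samples. Scalings, pseudocounts, filters, probe set merging, variance models and omitted arrays were tried as alternatives.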

Additional observations from a re-analysis of the deposited data

Results flagged for a closer look

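Among the 30 combinations of a cytokine gene and a group, 1 array stood far from the other 3 of its group. Csf1 had a signal of 4222.2 on control replicate 3, against 901.6 to 1117.7 on the other control arrays. The gap to the next array was 0.862 of the group's whole range on the log2 scale, above Dixon's critical value for 4 samples. Chance gives such a gap in about 1 in 20 groups, and 1 of 30 is fewer than that.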

How the results depend on the processing

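Of 543 fold changes of the 7 tested cytokines under the alternatives, 501 kept their direction and their side of the threshold. Another 7 newly passed, 12 no longer passed and 23 changed sign, and the cause was not tested for any of these. Leaving out arrays changed the number of arrays and the cultures fitted at the same time. All 12 lost calls were of Tslp between tmTNF and soluble TNF, which passed in 14 of 26 alternatives (log2 -2.843 to -2.074, adjusted p from 0.00438 to 0.248). The count of members that passed between tmTNF and soluble TNF was 0 with no filter (adjusted p of Tslp 0.0604, with 18193 genes tested), 2 with only those 2 groups in the model, 2 with array weights, 0 without the 3 arrays lowest in endothelial identity, 0 without the 5 arrays high in Krt19, and 0 to 1 leaving out 1 array. Between tmTNF and control it was 1 with no intensity trend and 0 to 1 leaving out 1 array. Between soluble TNF and control it was 1 without the 3 arrays and 0 to 1 leaving out 1 array. With array weights, 1 receptor, 1 other cytokine, 2 regulators of mRNA stability and 1 protease gene passed between tmTNF and soluble TNF, and 1 such regulator did without the 3 arrays. The share of all genes that passed was not computed for the alternatives, so none of these counts can be set against a background. Il7 gave no value with the filter set at a signal of 250.

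Sign changes concerned values that never passed. Il15 for soluble TNF minus control turned to 0.018 with quantile scaling and 0.028 with equal medians, and lay between -0.519 and 0.35 leaving out 1 array. Il15 for tmTNF minus control lay between -0.243 and 0.625 leaving out 1 array and was -0.471 without the 3 or the 5 arrays, and for tmTNF minus soluble TNF it was -0.243 without the 5. Kitl for tmTNF minus soluble TNF was -0.117 with equal medians and -0.003 to 0.264 leaving out 1 array. Il6 for soluble TNF minus control was 0.081 with array weights and -1.844 to 0.384 leaving out 1 array. Tslp for tmTNF minus control ran from -0.831 to 0.097 leaving out 1 array. Il33 without the 3 arrays was -0.501 against control and -1.6 against soluble TNF for tmTNF. Without the 5 it was -0.501, -0.117 for soluble TNF minus control, then -0.384 for tmTNF minus soluble TNF. Leaving out 1 array, Il33 ran from -0.1 to 1.191 between soluble TNF and control, and from -0.146 to 2.337 for tmTNF minus soluble TNF. No paired analysis was possible because the labels carry no shared replicate numbers.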

Other observations

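Among cytokines too dim for the test, Il34, an alternative ligand of Csf1r, gave 81.8 to 413.5 with tmTNF, 44.9 to 70.4 with soluble TNF and 20.9 to 64.3 in controls. Every tmTNF array lay above the 8 others. Il18, a partner of interferon responses, gave 53.4 to 601.6 with tmTNF, 34.3 to 43.1 with soluble TNF and 20.1 to 58.8 in controls, and its highest signals stood on tmTNF replicates 2 and 4. Both were picked after their values were seen and carry no test.

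Csf2rb and Csf2rb2, the shared beta chain of the granulocyte-macrophage receptor and its near-identical mouse copy, were high on 1 array of each group. Csf2rb had 3556.9 on tmTNF replicate 3, 660.4 on soluble TNF replicate 3 and 2614.3 on control replicate 2, and at most 116.6 on the other 9 arrays. Csf2rb2 was highest on the same 3 arrays, at 1495.7, 354.8 and 759.5. Which copy each probe set reads is uncertain, so the pair is not counted as separate measurements.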
